A study of Mus musculus with 9 samples.

Results

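The genes described here are 10 genes of dietary fat absorption and chylomicron assembly: Cd36, Fabp1, Fabp2, Dgat1, Mttp, Apob, Apoa1, Apoa4, Apoc2 and Apoc3. They were selected by gene symbol, with earlier results of these data known. All 10 of 10 were found in both deposited tables, each of which lists 23951 genes. RNA was sequenced from crypts of the mouse jejunum in 9 libraries, 3 in each of 3 groups. The control mice are described as vehicle treated in the sample labels and as uninjected in the design text, and the alleles they carried are not given. The second group, called Smad4 KO below, was Smad4f/f;Villin-CreER(T2): both Smad4 alleles are floxed, and the Villin promoter drives a tamoxifen-activated recombinase in the intestinal epithelium. The third group, called double mutant below, was Smad4f/f; Ex3f/+;Villin-CreER(T2), which adds 1 floxed copy of exon 3 of the beta-catenin gene. Removal of that exon takes away the sites by which beta-catenin is marked for degradation. Both mutant groups received tamoxifen for 4 days in a row and were collected the day after, and the ages are not given. As none of the controls is described as given tamoxifen, the drug and recombinase activity cannot be told apart from the loss of Smad4. Sex-linked transcripts put both sexes in each group, so each group held more than 1 mouse. Whether each library is a different mouse is not stated, and the p-values measure the spread between these libraries, which may be technical in part.

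The absorptive cells of the small intestine take up fatty acids and monoglycerides from the gut lumen, carry them through the cytosol on fatty acid binding proteins and rebuild triglyceride at the endoplasmic reticulum. The microsomal triglyceride transfer protein loads this fat onto apolipoprotein B to make chylomicrons, which receive further apolipoproteins and leave the cell for the lymph. This machinery belongs to mature absorptive cells of the villus, whereas the crypt holds stem cells, dividing progenitors and Paneth cells. Smad4 carries signals of the TGF-beta and BMP families to the nucleus, and stabilised beta-catenin drives Wnt target genes.

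The promoter sequences printed are of the 5 genes that fell in the double mutant at an adjusted p below 0.05 in limma and had an entry. Apoc3 also fell but had no entry. The sequences are from RefSeq, build GRCm38.p6, which held an entry for 8 of the 10 genes. Each is the 250 bases before the annotated start, read on the strand of the gene and towards the start. Capitals mark matches on either strand to the motifs searched. The positions are chr9:46228380-46228629 on the plus strand for Apoa1, chr9:46240594-46240843 on the plus strand for Apoa4, chr7:19677942-19678191 on the minus strand for Apoc2, chr5:17835897-17836146 on the minus strand for Cd36 and chr3:122894822-122895071 on the plus strand for Fabp2.
Apoa1: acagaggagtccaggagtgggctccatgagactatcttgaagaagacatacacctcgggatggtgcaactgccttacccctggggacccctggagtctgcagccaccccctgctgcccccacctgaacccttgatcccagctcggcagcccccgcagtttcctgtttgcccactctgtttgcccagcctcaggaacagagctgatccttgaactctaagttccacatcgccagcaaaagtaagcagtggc
Apoa4: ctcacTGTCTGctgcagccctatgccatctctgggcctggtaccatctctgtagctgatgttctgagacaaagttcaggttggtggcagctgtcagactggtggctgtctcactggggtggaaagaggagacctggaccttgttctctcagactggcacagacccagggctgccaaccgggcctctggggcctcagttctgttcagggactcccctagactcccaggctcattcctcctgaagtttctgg
Apoc2: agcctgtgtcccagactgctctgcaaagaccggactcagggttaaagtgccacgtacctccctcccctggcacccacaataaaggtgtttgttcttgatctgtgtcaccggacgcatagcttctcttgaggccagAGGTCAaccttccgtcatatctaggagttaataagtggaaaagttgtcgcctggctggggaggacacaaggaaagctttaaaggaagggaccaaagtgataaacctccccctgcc
Cd36: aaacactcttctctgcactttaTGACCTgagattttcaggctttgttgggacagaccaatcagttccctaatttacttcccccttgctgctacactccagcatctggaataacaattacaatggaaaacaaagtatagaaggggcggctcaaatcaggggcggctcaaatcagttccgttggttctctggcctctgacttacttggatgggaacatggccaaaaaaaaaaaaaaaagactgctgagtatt
Fabp2: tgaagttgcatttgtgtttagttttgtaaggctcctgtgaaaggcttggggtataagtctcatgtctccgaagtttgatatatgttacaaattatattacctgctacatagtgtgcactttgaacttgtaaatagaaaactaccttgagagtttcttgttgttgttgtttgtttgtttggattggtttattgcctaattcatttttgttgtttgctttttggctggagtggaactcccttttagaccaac
7 short motifs were searched on both strands of the 300 bases around each start (250 before and 50 after), none contained in another. The nuclear receptor core motif AGGTCA was found in 3 of 8 promoters and in 16.3% of 32851 mouse promoters of that length. In Apoc2 it lay at -115 from the start and again at 43 after it, in Cd36 at -228, and in Fabp1 at -67 and -9, the Cd36 and Fabp1 matches being on the opposite strand (TGACCT). The SMAD element CAGACA occurred in 1 of 8, in Apoa4 at -245 on the opposite strand, and in 21.0% of all promoters. The TATA box TATAAA occurred in 2 of 8 (Apob and Fabp1) and in 13.6% of all. No match was found in the 8 promoters for the HNF4 motif CAAAGTCCA (0.475% of all promoters), the GATA motif AGATAA (11.2%), the SMAD palindrome GTCTAGAC (0.213%) or the TCF/LEF motif ATCAAAG (3.73%). These matches describe letters, not bound sites.

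Values were FPKM, fragments scaled by transcript length and library size, so levels can be set side by side between genes of a library. Summed FPKM ran from 568081 to 752340 in the table with Smad4 KO and from 573491 to 758719 in the table with the double mutants. FPKM keeps no read numbers, and the spacing of low values put relative depth at 0.953 to 1.42 times that of control 0. The same 3 controls appear in both tables, where they differ by 1 factor a library (1.03, 1.06 and 1.04), so each mutant group was compared with the controls of its own table, and both comparisons share those controls. Smad4 itself was 49.8 ± 5.02 FPKM in the controls and 10.6 ± 0.56 in Smad4 KO (SD, n = 3), a log2 fold change of -2.13 with adjusted p = 0.00664 in limma. In the other table it went from 52.0 ± 5.96 to 10.4 ± 0.64 (SD, n = 3), a log2 fold change of -2.21 with adjusted p = 0.00176.

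Absorptive genes ranked high in these crypt preparations. In the controls of the first table the order of mean level was Apoa1 (1394 ± 891 FPKM), Fabp1 (1232 ± 711), Fabp2 (1151 ± 654), Apoa4 (590.1 ± 219), Mttp (325 ± 156), Dgat1 (295 ± 140), Apoc3 (214 ± 146), Apoc2 (157 ± 9.13), Apob (93.0 ± 31.8) and Cd36 (9.03 ± 5.80; all SD, n = 3). Among neighbours in this order the control libraries overlapped except between Apoc2 and Apob and between Apob and Cd36. Within each control library the order also held for Fabp2 over Apoa4, Apoa4 over Mttp, Mttp over Dgat1 and Dgat1 over Apoc3. It did not hold in each control for Apoa1 and Fabp1, Fabp1 and Fabp2, or Apoc3 and Apoc2. Apoa1 held rank 27 to 85 of all genes in a control library, whereas Cd36 held rank 5184 to 9211. Together the 10 genes made up 0.432%, 0.777% and 1.40% of summed FPKM in controls 0, 1 and 2. Control 2 was the highest and control 0 the lowest control for 9 of 10 genes, Apoc2 being the exception. The spread within the controls was up to 4.47 times between libraries for Apoc3, and 1.12 times for Apoc2.

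In the double mutant the genes were lower as a group: 6 of 10 fell (Apoa1, Apoa4, Apoc2, Apoc3, Fabp2 and Cd36) at an adjusted p below 0.05, against 9.09% of the 11762 genes tested that were called lower, 9.39% called higher and 18.5% called in either direction. 9 of 10 were lower at an unadjusted p below 0.05, against 18.4% of genes tested (36.6% in either direction). Their 10 log2 fold changes were negative, against 50.1% of genes tested, with a median of -1.64. In 9 of 10 genes the 3 double mutant libraries lay below the 3 controls, which held for 21.3% of genes tested. In Smad4 KO no gene of the 10 passed the test, and the 3 libraries went apart. Library 0 lay above the 3 controls for 7 of 10 genes, library 1 lay below them for 10 of 10, and library 2 lay below them for 9 of 10. The share of summed FPKM held by the 10 genes was 2.43%, 0.177% and 0.306% in Smad4 KO 0, 1 and 2, and 0.166%, 0.378% and 0.347% in double mutants 0, 1 and 2. In whole crypts, fewer absorptive cells and less RNA per cell cannot be told apart.

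**Figure D1:**
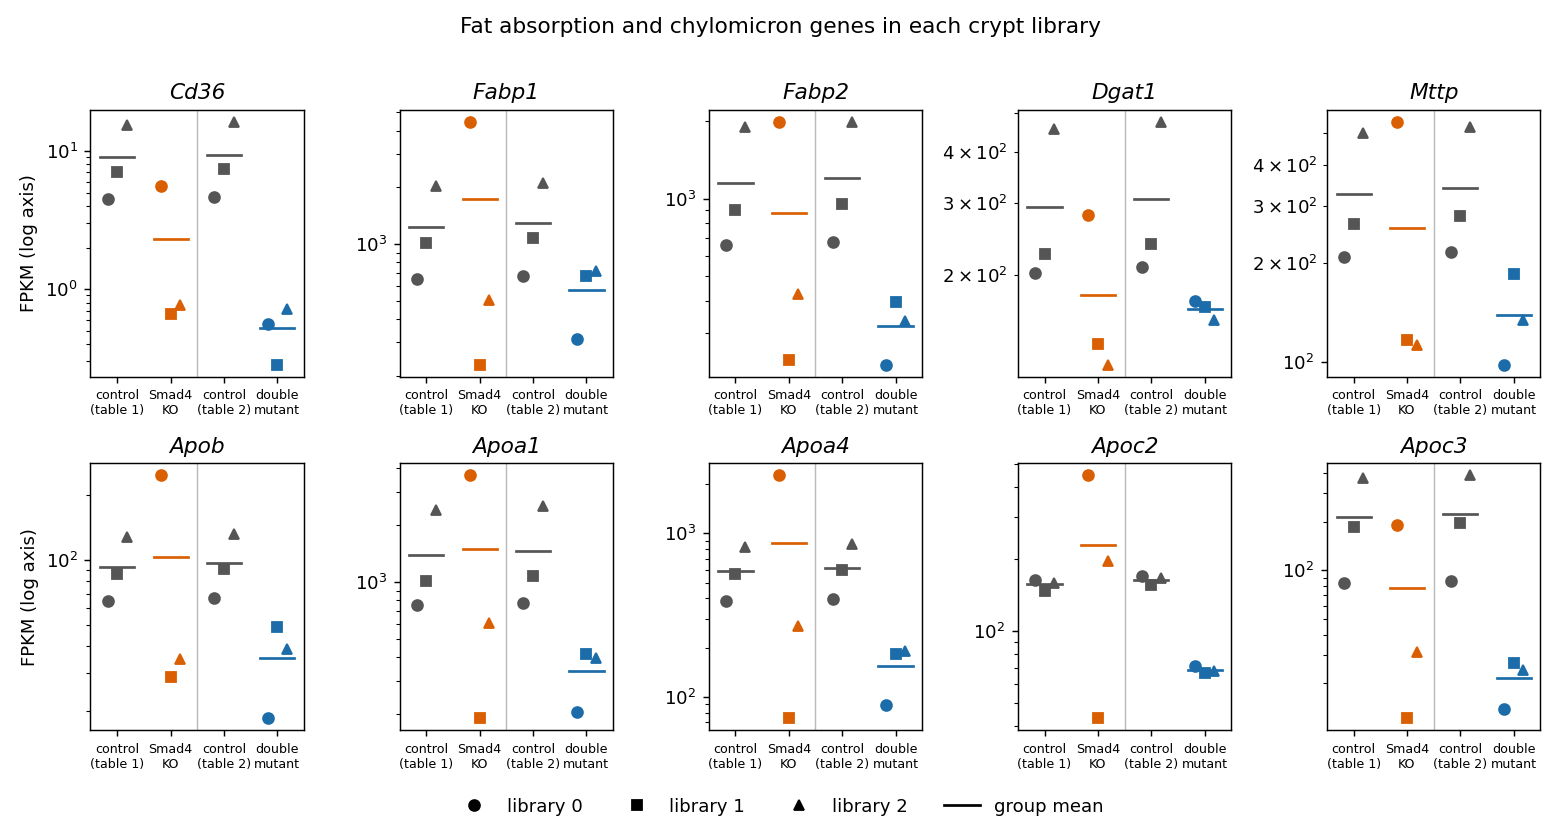
FPKM of the 10 genes on log axes, 1 panel a gene, with the libraries of each group as points (circle, library 0; square, library 1; triangle, library 2) and the group mean as a line; the grey divider separates the tables, which were normalized separately. Smad4 KO 0 sits far above the other Smad4 KO libraries in each panel, and the double mutant libraries lie below their controls in 9 of 10 panels.

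Cd36 encodes a membrane protein that binds long-chain fatty acids at the cell surface, and it was the lowest expressed of the 10. Its FPKM was 4.51, 7.02 and 15.6 in controls 0, 1 and 2 and 5.55, 0.658 and 0.770 in Smad4 KO 0, 1 and 2. Smad4 KO 0 was inside the control range and the other 2 libraries were below 1 FPKM. The log2 fold change was -1.75 (SE 0.66), with adjusted p = 0.238 and an unadjusted p of 0.0376, the only one of the 10 genes under 0.05 unadjusted in Smad4 KO. In the second table the controls were at 4.65, 7.44 and 16.2 FPKM and the double mutants at 0.559, 0.284 and 0.717, without overlap. Cd36 fell by 2.63 on the log2(FPKM + 1) scale (SE 0.40, adjusted p = 0.0164). That scale shrinks the change of a gene at such low FPKM, and the double mutant mean in FPKM was 5.51% of the control mean.

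Fabp1 and Fabp2 encode the liver-type and intestinal fatty acid binding proteins, which both carry fatty acids in the cytosol of enterocytes. Fabp1 was at 654, 1017 and 2025 FPKM in the controls and at 4447, 229 and 505 in Smad4 KO 0, 1 and 2. The highest and the lowest of these 6 libraries were both Smad4 KO libraries, and the log2 fold change was -0.46 (SE 1.13, adjusted p = 0.855). In the second table Fabp1 was at 674, 1078 and 2113 FPKM in the controls and at 312, 673 and 720.2 in the double mutants. Double mutant 2 lay above control 0, so Fabp1 was the gene of the 10 whose groups overlapped, and the log2 fold change of -1.11 (SE 0.51) did not pass (adjusted p = 0.169). Fabp2 showed a narrower range in Smad4 KO, at 1981, 236 and 426 FPKM beside controls of 658, 903 and 1892. Its log2 fold change there was -0.83 (SE 0.85, adjusted p = 0.630). In the double mutants Fabp2 was at 227, 397 and 336 FPKM, below each of its controls at 678, 956 and 1973. Fabp2 fell by 1.80 on the log2 scale (SE 0.43, adjusted p = 0.0378), to a mean of 26.6% of the control mean. Within a library, the ratio of Fabp1 to Fabp2 was 0.994, 1.13 and 1.07 in the controls and 1.37, 1.69 and 2.15 in the double mutants, which lay above the controls. In Smad4 KO 0, 1 and 2 it was 2.24, 0.968 and 1.18, which overlapped with the controls.

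Dgat1 encodes an acyltransferase that makes triglyceride from diglyceride. It was at 203, 225 and 455 FPKM in the controls and at 281, 136 and 121 in Smad4 KO 0, 1 and 2. Smad4 KO 0 lay within the control range and the other 2 below it, with a log2 fold change of -0.72 (SE 0.44, adjusted p = 0.421). In the second table the controls were at 209, 239 and 475 FPKM and the double mutants at 173, 167 and 156. The groups did not overlap and the double mutants differed among themselves by 1.11 times, but the change of -0.80 (SE 0.31) did not pass (adjusted p = 0.120). Dgat1 had the smallest fitted change of the 10 genes in the double mutant.

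Mttp encodes the large subunit of the microsomal triglyceride transfer protein, and Apob encodes the structural protein of the chylomicron. Mttp was at 209.8, 263 and 502 FPKM in the controls and at 541, 117 and 113 in Smad4 KO 0, 1 and 2. Smad4 KO 0 was above the controls and the other 2 were below them (log2 fold change -0.65, SE 0.69, adjusted p = 0.643). Double mutants were at 98.1, 186 and 134 FPKM and their controls at 216, 279 and 524, without overlap. The log2 fold change was -1.23 (SE 0.38), and Mttp missed the threshold with adjusted p = 0.0713. Apob was at 65.0, 86.4 and 127 FPKM in the controls and at 247, 28.8 and 34.9 in Smad4 KO, the same split of library 0 from the others (log2 fold change -0.50, SE 0.83, adjusted p = 0.779). In the double mutants Apob was at 18.6, 48.9 and 38.6 FPKM beside controls of 67.0, 91.5 and 133. These groups did not overlap either, and the log2 fold change of -1.48 (SE 0.40) lay just outside the threshold, with adjusted p = 0.0507.

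Apoa1 and Apoa4 encode apolipoproteins that the intestine secretes on chylomicrons and on high density particles. Apoa1 was at 754, 1017 and 2412 FPKM in the controls and at 3667, 190.3 and 607 in Smad4 KO 0, 1 and 2, a 19.3-fold span among Smad4 KO libraries. Apoa4 spanned 30.4-fold there, at 2258, 74.3 and 271 FPKM beside controls of 386, 563 and 822. Neither passed: the log2 fold change was -0.71 for Apoa1 (SE 1.11, adjusted p = 0.759) and -0.65 for Apoa4 (SE 1.20, adjusted p = 0.801). In the double mutants Apoa1 was at 206, 416 and 395 FPKM, below its controls at 778, 1077 and 2516. Apoa1 fell by 1.98 on the log2 scale (SE 0.50, adjusted p = 0.0420). Apoa4 was at 89.8, 184 and 191 FPKM in the double mutants and at 398, 597 and 857 in their controls, and it fell by 1.996 (SE 0.39, adjusted p = 0.0254). The ratio of Apoa4 to Apoa1 within a library overlapped between controls (0.511, 0.554 and 0.341), Smad4 KO (0.616, 0.390 and 0.447) and double mutants (0.437, 0.442 and 0.484).

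Apoc2 and Apoc3 encode small apolipoproteins with opposite roles: the first activates lipoprotein lipase and the second inhibits it. Apoc2 was nearly level in the controls, at 164, 146 and 159 FPKM, and stood at 448, 43.1 and 196 in Smad4 KO 0, 1 and 2. Smad4 KO 0 and 2 lay above the controls and Smad4 KO 1 below, so that the log2 fold change was -0.00 (SE 0.81, adjusted p = 0.9997). In the second table the controls were at 169, 155 and 166 FPKM and the double mutants at 71.5, 66.4 and 68.0. Both groups were tight, and Apoc2 fell by 1.24 (SE 0.09), the smallest adjusted p of the 10 genes at 0.00676. Apoc3 was at 83.1, 186 and 372 FPKM in the controls and at 191, 12.1 and 31.2 in Smad4 KO. Smad4 KO 0 lay inside the control range and the other 2 were below it (log2 fold change -2.06, SE 1.06, adjusted p = 0.344). Double mutants were at 13.8, 26.7 and 24.2 FPKM and their controls at 85.7, 198 and 388. Apoc3 fell by 3.11 (SE 0.55, adjusted p = 0.0207), the largest fitted change of the 10, to a mean of 9.64% of the control mean.

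**Figure D2:**
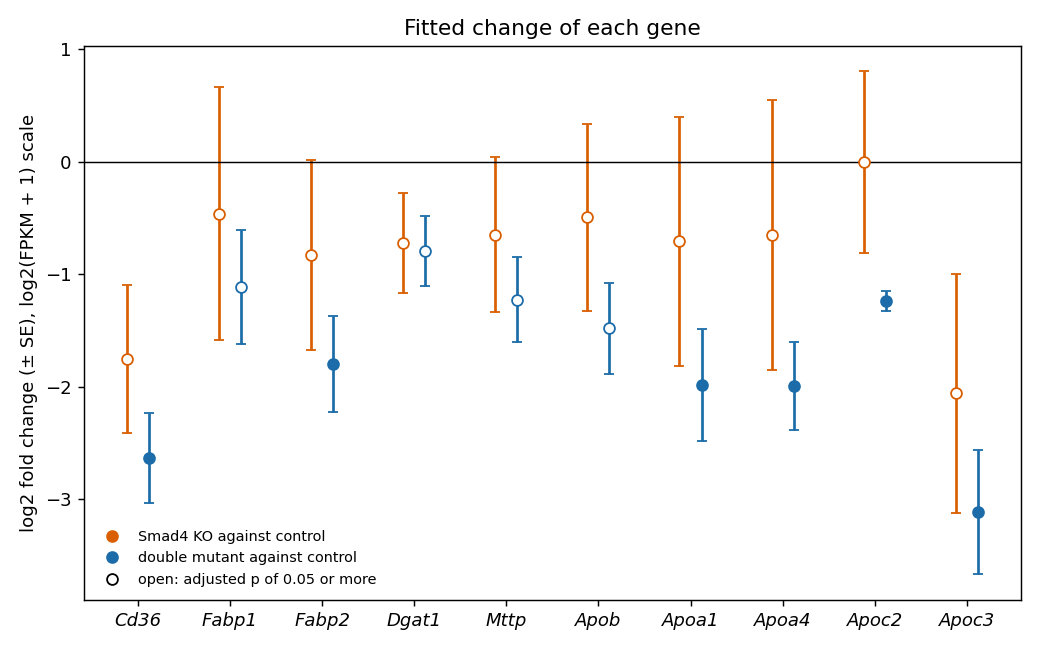
Log2 fold change of each gene with its standard error, on the log2(FPKM + 1) scale, for Smad4 KO (orange) and the double mutant (blue), each against the controls of its own table; filled points have an adjusted p below 0.05. The 6 filled points are double mutant values between -1.24 and -3.11, and the Smad4 KO error bars are the longer ones for each gene.

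For Smad4 KO the 10 log2 fold changes were negative, with a median of -0.68, whereas 50.4% of the 11849 genes tested had a negative value. The count called lower was 0 of 10 in limma, where 0.0253% of genes tested were called lower, 0.00844% higher and 0.0338% in either direction. It was 1 of 10 at an unadjusted p below 0.05, where the share of genes tested was 9.34% for lower values and 19.1% for either direction. No gene of the 10 had its 3 Smad4 KO libraries below the 3 controls, against 12.2% of genes tested, and none had them above, against 14.2%. Means in FPKM did not share the sign of the log2 values for Apoa1, Apoa4, Apob, Apoc2 and Fabp1: their Smad4 KO means were 107% to 147% of control, since Smad4 KO 0 weighs more in a mean of FPKM. Without Smad4 KO 1, the log2 fold change became positive for these 5 genes, from 0.06 for Apob to 0.92 for Apoc2. An exact permutation test of 3 against 3 libraries cannot go below p = 0.1, the value that the 9 non-overlapping genes had in the double mutant.

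Calls in the double mutant depended on single libraries, over all genes tested as well as among the 10 genes. With every library in, 2173 of all genes tested were called. Leaving out control 0, 1 or 2 gave 1555, 1175 and 1064 calls. Leaving out double mutant 0, 1 or 2 gave 139, 708 and 30. 2 of the 10 genes were called without control 1 (Apoc2 and Cd36), 3 without control 2, 1 without double mutant 0 (Apoc2), 2 without double mutant 1 (Apoc2 and Cd36) and 0 without double mutant 2. 6 were called without control 0. Log2 fold changes of the 10 genes stayed negative in each of these fits. Apoc2 was called in 5 of the 6 fits, with adjusted p up to 0.0508, and Cd36 in 4. Double mutant 0 was the lowest double mutant library for 7 of 10 genes.

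**Figure D3:**
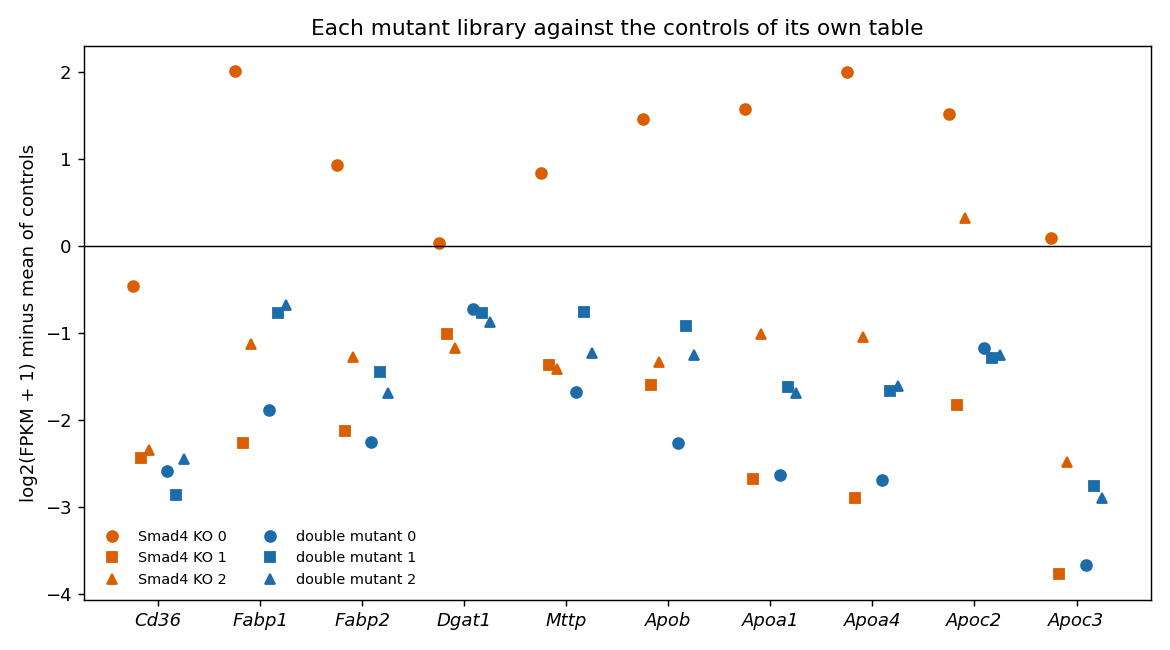
Log2(FPKM + 1) of each mutant library minus the mean of the controls in its own table, for the 10 genes; colours are the groups and shapes the library numbers. Smad4 KO 0 lies above 0 except for Cd36, whereas Smad4 KO 1 and the 3 double mutants lie below 0 for each gene.

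Averaged over the 10 genes, Smad4 KO 0 stood 0.998 above the control mean of log2 values, and the difference was -2.20 for library 1 and -1.29 for library 2 of that group. It was -2.16, -1.49 and -1.57 in double mutants 0, 1 and 2. Set side by side as percent of the control mean of each table, which were normalized separately, the double mutant libraries were lower than Smad4 KO 0 for 10 of 10 genes and lower than Smad4 KO 2 for 6 of 10. For 6 of 10 they lay inside the Smad4 KO range. The mutant groups were not tested against each other.

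Markers of the villus enterocyte outside the lists of fat absorption genes moved with these genes. Of 20 such markers (mostly brush border enzymes and transporters, with Vil1, Krt20, Rbp2, Ada and Cbr1), 16 fell in the double mutant. The median log2 fold change of the 20 was -2.16. None passed in limma for Smad4 KO (0 of 20), 4 had an unadjusted p below 0.05, and the median was -1.54. The summed level of these markers was 3265 to 7686 FPKM in the controls of the first table and 6077, 1107 and 1503 in Smad4 KO 0, 1 and 2. It was 3367 to 8017 in the controls of the second table and 1094 to 1752 in the double mutants. Paneth cell markers, 8 of 8 tested with 0 called by limma and 0 at an unadjusted p below 0.05 in either comparison, had negative log2 fold changes for 7 of 8 in each, with medians of -0.82 in Smad4 KO and -0.48 in the double mutant. Their sum was 9561, 61937 and 119214 FPKM in Smad4 KO 0, 1 and 2 and 52128 to 135433 in the controls. In the second table it was 87626, 29393 and 51783 in double mutants 0, 1 and 2 and 54371 to 139651 in the controls. In the controls the Paneth sum was highest in control 0 and lowest in control 2, the reverse of the order of 9 of the 10 genes. Stem and transit cell markers summed to 438, 1246 and 1350.5 FPKM in Smad4 KO 0, 1 and 2. The controls held 834 to 1796 FPKM, lowest in control 2. Of 10 such markers 2 rose in the double mutant, Smoc2 (0.79, adjusted p = 0.0142) and Lgr5 (1.08, adjusted p = 0.0203), and 0 passed in limma for Smad4 KO, also at an unadjusted p below 0.05. Of 8 enteroendocrine markers 1 rose in the double mutant, the peptide hormone gene Pyy (1.98, adjusted p = 0.0243). For the Smad4 KO comparison 0 of these 8 were called in limma, 5 had an unadjusted p below 0.05, and for 5 the 3 libraries lay above the 3 controls. Over all genes tested, 9.09% were called lower and 9.39% higher in the double mutant. For Smad4 KO 19.1% of all genes tested had an unadjusted p below 0.05 in limma, and 9.34% had it with a lower value. For 14.2% the 3 Smad4 KO libraries lay above the 3 controls. Log2 fold changes were negative for 50.4% of genes tested in Smad4 KO and 50.1% in the double mutant. The part of these cell types in the results was not tested.

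Markers of cells outside the epithelium were also summed. Adipocytes and endothelium express Cd36, and the summed adipocyte markers were at most 1.06 FPKM in a library, with Lep at 0 in all 9. The summed endothelial markers were between 4.75 and 9.95 FPKM. Of these 10 markers 3 reached a mean of 1 FPKM in each table, and the highest value of a marker was 5.28 FPKM. Others, Cdh5, Kdr, Tie1 and Emcn, were each at or near 0. Cd36 itself was at 4.51 to 15.6 FPKM in the controls of the first table. Macrophage and leukocyte markers summed to 16.2 to 74.0 FPKM in the first table and 16.0 to 55.1 in the second, where 3 of 7 tested were called lower in the double mutant. Fibroblast and muscle markers summed to 0.331 to 1.34 FPKM in the controls and to 9.40, 2.33 and 67.1 in Smad4 KO 0, 1 and 2. In the second table they summed to 0.350 to 1.40 in the controls and to 43.4, 1.53 and 2.30 in double mutants 0, 1 and 2. Each mutant library thus lay above the controls of its table in this sum. Of 8 blood, liver and pancreas transcripts, the liver transcript Alb was at most 0.281 FPKM and the pancreatic Prss1 was listed at 0 in all 9 libraries. The sum of that list, 114 to 4252 FPKM in the first table and 305 to 4384 in the second, was nearly all Clps, the gene of pancreatic colipase, which was at 4241, 2032 and 585 FPKM in the controls and at 96.7, 819 and 1806 in Smad4 KO 0, 1 and 2. Within the controls and within Smad4 KO, Clps had the same order of libraries as the summed Paneth cell markers. Its source in these libraries was not tested. Of that list 1 of the 4 tested, Cela1, was called higher in the double mutant (0.76, adjusted p = 0.0472). Over all genes tested, 9.09% were called lower and 9.39% higher in the double mutant. Whether these cells had a part in the values of the 10 genes was not tested.

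Across libraries the 10 genes rose and fell with one another. Pearson's r of log2(FPKM + 1) between pairs ran from 0.41 to 0.99 (median 0.90) over the 6 libraries of the first table and from 0.64 to 0.997 (median 0.94) over those of the second. The lowest values were for Apoc2, with Dgat1 in the first table and with Fabp1 in the second. These are descriptions over 6 libraries that share their scaling and the contrast between groups. By the same measure, the genes outside the 10 most like their mean profile, of 8989 compared, were Mep1b, Cdc42se2, Dhrs1, Acsl5 and Cyp2d26, each with r of about 0.99 in both tables. Mep1b, which encodes a brush border protease, was at 100.1, 135 and 307 FPKM in the controls and 286, 27.5 and 58.8 in Smad4 KO 0, 1 and 2.

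Apoc3 and Cd36 departed from the shared profile, a pattern noticed after their values were seen and given as a description. The ratio of Apoc3 to Apoa1 within a library was 0.110, 0.183 and 0.154 in the controls. It was 0.0521, 0.0638 and 0.0514 in Smad4 KO 0, 1 and 2 and 0.0670, 0.0643 and 0.0612 in the double mutants. So Smad4 KO 0, which had 3667 FPKM of Apoa1, had a ratio of Apoc3 to Apoa1 like that of the other mutant libraries. That did not hold for each partner. The ratio of Apoc3 to Dgat1 was 0.679 in Smad4 KO 0, inside the control range of 0.409 to 0.828. It was 0.0897 and 0.258 in Smad4 KO 1 and 2. The ratio of Cd36 to Fabp2 was between 0.0069 and 0.0082 in the controls, between 0.0018 and 0.0028 in Smad4 KO and between 0.0007 and 0.0025 in the double mutants. Over the 9 partners among the 10 genes, the ratio of Apoc3 lay below the controls in the 3 Smad4 KO libraries for 7 and that of Cd36 for 8, and 0 ratios of another member did so. Set against each other gene tested, that share was 3.99% for Apoc3 and 25.2% for Cd36 in Smad4 KO. In the double mutant it was 8 of 9 for both genes, but there also 96.0% and 98.9% of all other genes tested. Other members had such ratios there too: 4 of 9 for Apoa1, 4 of 9 for Apoa4 and 3 of 9 for Fabp2. Of the 45 pairs among the 10 genes, 15 had ratios that did not overlap in Smad4 KO (33.3%) and 27 in the double mutant (60.0%). Over all pairs of genes tested with no 0 these shares were 25.5% and 43.5%.

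**Figure D4:**
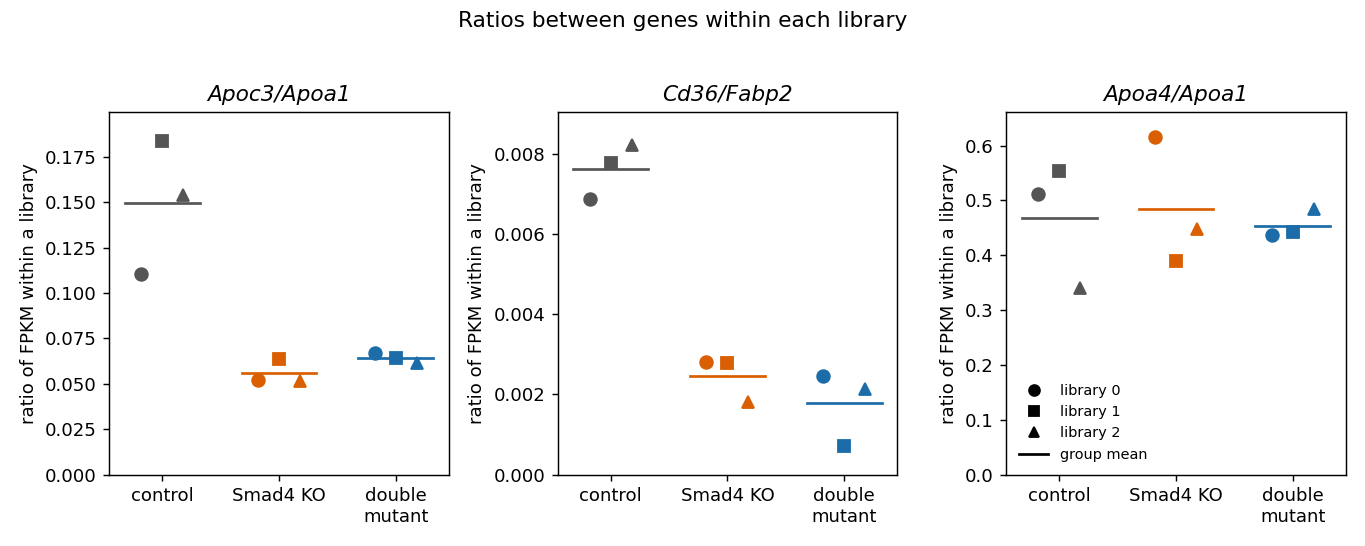
Ratios of FPKM within each library for Apoc3 to Apoa1, Cd36 to Fabp2 and Apoa4 to Apoa1, on linear axes from 0, with libraries as points and group means as lines. In the first 2 panels the mutant libraries lie below the controls, Smad4 KO 0 among them, and in the third the groups overlap.

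Apoa1, Apoc3 and Apoa4 lie beside each other on mouse chromosome 9, in an order that ends with Apoa5. Apoa5, which encodes a liver apolipoprotein, was listed at no more than 0.03 FPKM in any library. Of the 8 flanking genes tested, 0 were called by limma in either comparison (0 and 2 at an unadjusted p below 0.05 in Smad4 KO and the double mutant), with median log2 fold changes of 0.01 in Smad4 KO and -0.00 in the double mutant. Over all genes tested, 19.1% in Smad4 KO and 36.6% in the double mutant had an unadjusted p below 0.05 in limma. In the double mutant the values of the flanking genes were 0.15 for Bud13, 0.04 for Sik3, 0.19 for Pafah1b2, -0.42 for Sidt2, -0.04 for Tagln, -0.18 for Pcsk7, -0.26 for Rnf214 and 0.16 for Cep164. Another neighbour, Zpr1 (also called Zfp259), matched through its other symbol after its list had been set, rose by 0.55 (adjusted p = 0.0160). Around Apoc2 on chromosome 7, Tomm40, a mitochondrial import channel, rose in the double mutant by 0.77 (adjusted p = 0.0126), whereas Apoe (0.75, adjusted p = 0.352), Clptm1 (0.07), Pvrl2 (0.30), Bcam (0.42) and Relb (-0.28) did not pass. Apoc1 and Apoc4, which neighbour Apoc2, were listed at no more than 0.951 FPKM. The kit does not mark strand, and the annotation used here places Gm44805 over Apoc2 and 4933405D12Rik over Fabp2. 4933405D12Rik was at most 0.392 FPKM, and Gm44805 has no row in the tables.

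Of 61 other genes of fat absorption listed, 54 were tested, and in the double mutant 15 fell and 2 rose, with a median log2 fold change of -0.51. The Smad4 KO comparison had 0 called in limma and 7 at an unadjusted p below 0.05 (5 lower and 2 higher), with a median of -0.29. Over all genes tested, 9.09% were called lower and 9.39% higher in the double mutant. For Smad4 KO 19.1% of all genes tested had an unadjusted p below 0.05 in limma, and 9.34% had it with a lower value. In uptake and activation 1 of 11 fell in the double mutant, Slc27a4, a fatty acid transport protein of the enterocyte (-1.34, adjusted p = 0.0400). 1 of the 11 rose, Acsl3, an acyl-CoA synthetase (0.60, adjusted p = 0.0442). Acsl5, the acyl-CoA synthetase abundant in the gut, was at -1.02 (adjusted p = 0.0515), and the lipoprotein receptor Scarb1 at 0.58 (adjusted p = 0.286).

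In glyceride synthesis 4 of 13 fell, among them the phosphatidate phosphatase Lpin2 (-0.53, adjusted p = 0.0213). Mogat2, the main monoglyceride acyltransferase of the gut, was at 65.5, 92.5 and 180.3 FPKM in the controls and at 29.6, 52.3 and 38.5 in the double mutants, without overlap (-1.38, adjusted p = 0.0581). Dgat2 was at -1.09 (adjusted p = 0.138). Of 9 lipid droplet and lipolysis genes 4 fell. The smallest p of the lower calls among the 54 other genes were found here: Cidec (-1.19, adjusted p = 0.0169) and Cideb (-1.87, adjusted p = 0.0181), lipid droplet proteins of the same family, and the triglyceride lipase Pnpla2 (-0.43, adjusted p = 0.0205). The droplet coat gene Plin2 was at -0.59 (adjusted p = 0.0945).

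In assembly and export 4 of 12 fell: Sec23a, a coat component of vesicles that leave the endoplasmic reticulum (-0.93, adjusted p = 0.0222), Mia2 (-0.98, adjusted p = 0.0298), Pla2g12b (-1.07, adjusted p = 0.0378) and Prap1 (-1.13, adjusted p = 0.0495). Mia2 may share reads with Ctage5, which is listed separately (-0.23, adjusted p = 0.198). Sar1b, the small GTPase of chylomicron export, was at -0.54 (adjusted p = 0.104), Tm6sf2 at -0.93 (adjusted p = 0.105) and Apobec1, which edits the Apob transcript, at -0.29 (adjusted p = 0.0687). Mia3 and Vamp7 were listed at 0 in all 9 libraries. Of 3 other apolipoproteins tested 0 passed in limma, also at an unadjusted p below 0.05. Of 6 lipoprotein receptors and sterol transporters, Npc1l1, the cholesterol uptake transporter (-1.42, adjusted p = 0.0391), and Lrp1 (-1.02, adjusted p = 0.0236) fell, and 1 rose.

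**Figure D5:**
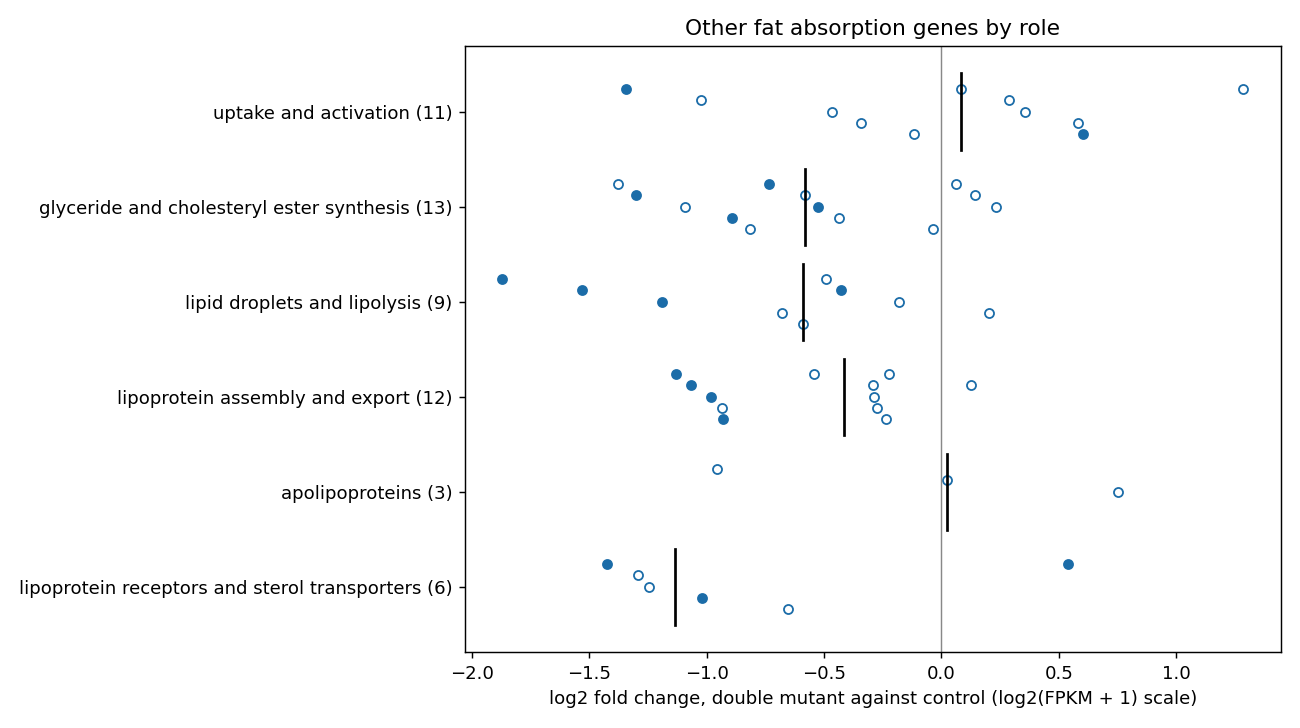
Log2 fold change of each other fat absorption gene tested in the double mutant, by role, with the number tested in brackets; filled points have an adjusted p below 0.05 and the vertical bars are medians. Filled points lie to the left of 0 in 5 of the 6 roles, and the filled point to the right in uptake and activation is Acsl3.

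Of 24 transcription factors and cofactors that act on such genes 23 were tested, and in the double mutant 7 fell and 1 rose. Over all genes tested in that comparison, 9.09% were called lower and 9.39% higher. Ppargc1a, a coactivator of nuclear receptors, was at 9.49, 13.5 and 15.8 FPKM in the controls and 1.89, 2.47 and 1.69 in the double mutants (-2.19, adjusted p = 0.00791). Hnf4g, an HNF4 form enriched in the gut, fell by 1.67 (adjusted p = 0.0170), whereas Hnf4a was at -0.14 (adjusted p = 0.602), with overlapping libraries. Of the fatty acid receptors, Ppard fell by 0.77 (adjusted p = 0.0136) and Ppara by 0.83 (adjusted p = 0.0466), and Pparg was at 0.06 (adjusted p = 0.903). Srebf1, a regulator of lipid synthesis, rose by 0.60 (adjusted p = 0.0182).

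None of the 23 regulators was called in limma for the Smad4 KO comparison, and 10 had an unadjusted p below 0.05 (8 lower and 2 higher). For 7 of the 23 the 3 Smad4 KO libraries lay below the 3 controls and for 2 above them. Over all genes tested, 19.1% had an unadjusted p below 0.05 in limma, and 9.34% had it with a lower value. The 3 Smad4 KO libraries lay below the 3 controls for 12.2% of all genes tested and above them for 14.2%. Ppard was at 57.6, 64.5 and 68.6 FPKM in the controls and at 32.3, 36.0 and 41.2 in Smad4 KO 0, 1 and 2 (-0.79, adjusted p = 0.111). Hnf4g was at 90.9, 151 and 160 FPKM in the controls and at 73.8, 46.5 and 34.1 in Smad4 KO (-1.39, adjusted p = 0.149). Creb3l3, which encodes a membrane-bound factor that acts on Apoa4, followed the 10 genes, at 37.6, 45.4 and 93.1 FPKM in the controls and at 175, 15.0 and 29.1 in Smad4 KO 0, 1 and 2 (-0.33, adjusted p = 0.876). In the double mutant Creb3l3 was at -0.89 (adjusted p = 0.165).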

How the data were processed

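Mouse jejunal crypts gave 9 libraries, 3 a group, prepared with an Illumina TruSeq RNA kit per the labels' protocols. The authors deposited FPKM in 2 tables, 1 for each mutant group with the shared controls. TopHat2 2.1.1 was used with Cuffnorm 2.2.1 and also Cuffdiff 2.2.1, on build mm9, per the submitters' processing notes; their roles and the annotation are not given in the sources used here. Read numbers cannot be had from FPKM, which leaves the absolute depth and the counting error unknown.

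Tables were fitted separately, on log2(FPKM + 1), by limma 3.58.1 (R 4.3.3) with a mean-variance trend and no covariate. Genes entered a fit where their mean over the 6 libraries reached 1 FPKM. Tests were two-sided, adjusted by Benjamini-Hochberg over the genes tested, and called at adjusted p below 0.05. A fold change on this scale understates that of low genes. The fit was tested on simulated data in which 200 genes were changed. For Smad4 KO it recovered 49.3%, 91.0% and 87.9% of 2-, 4- and 8-fold changes among 11849 genes, and for the double mutant 71.6%, 89.6% and 100% among 11762.

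The 10 genes and the lists were chosen with earlier results of these data known. The genes named from lists were a set of well-known members, and up to 3 called genes with the smallest p a list, comparison and direction; neighbours were all named. A gene that this rule chose is not reported here. Called genes of assembly and export and of the receptors beyond these were named after their values were seen, as were Zpr1, the marker genes and the ratios. The genes most alike had a mean of at least 5 FPKM. Alternatives were other pseudocounts, filters, scalings, a fit with no trend, a block, sex and leaving out libraries. By sex-linked transcripts the controls held 1 female library and the mutant groups 2 each.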

Additional observations from a re-analysis of the deposited data

How the results depend on the processing

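For Smad4 KO, 0 of the 10 genes and 0 of the other fat absorption genes were called in each of the 16 alternatives. Genes called over the whole Smad4 KO table numbered 4, against 2 with a pseudocount of 5, 2 with no filter, 8 with quantile normalization, 2 with sex as a covariate, 34 without control 2 and Smad4 KO 0 together (chosen after seeing the data) and 5 to 16 with 1 library left out. Leaving out 1 library moved the Smad4 KO log2 fold change of Apoa1 between -1.85 and 0.28, of Apoa4 between -1.98 and 0.48, of Apob between -1.47 and 0.059, of Apoc2 between -0.76 and 0.92 and of Fabp1 between -1.70 and 0.44; Apoc2 was also at 0.018 with a pseudocount of 5 and at 0.37 with sex as a covariate.

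For the double mutant, 6 of the 10 genes were called, against 1 with no filter, 4 with sex as a covariate, 7 with a pseudocount of 0.1 or median-of-ratios scaling, 8 with quantile normalization, 1 without control 2 and double mutant 0 together and 0 to 6 with 1 library left out. With a minimum mean of 5 FPKM Cd36 was not tested. The other fat absorption genes called numbered 17, against 3 with no filter, 10 with sex as a covariate, 0 without control 2 and double mutant 0 together and 0 to 18 with 1 library left out. Among all genes of that comparison 2173 were called, against 713 with no filter, 84 without control 2 and double mutant 0 together and 30 to 1555 with 1 library left out. The direction of each of the 10 genes in the double mutant was the same in each alternative run. Arms of 2 libraries were fitted with the pooled spread; fewer libraries enter these fits, and the cause of the other shifts was not tested.

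Libraries of the same number did not all pair in Smad4 KO, where the correlation of their deviations from the group means was -0.111, 0.223 and -0.0987. For the double mutant it was 0.0720, 0.132 and 0.0374. Each library of the double mutant table correlated best with its own number, by small values, a hint from the data and not from the design; in the Smad4 KO table this was not so. With the replicate number as a block, 8 of the 10 genes were called in the double mutant and 0 in Smad4 KO, where 1 gene was called over the whole table.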
